A study of Homo sapiens with 6 samples.

Results

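CCN1, CCN2, ANKRD1, AMOTL2, PTPN14 and NUAK2 are genes long used as readouts of the transcriptional co-activator YAP. Accessible chromatin around these 6 genes, of 20033 protein-coding genes in the gene table, was examined in 3 libraries of NCI-H1703 cells with DLGAP1-AS2, a long non-coding RNA, silenced and in 3 libraries of control cells. NCI-H1703 is an established human lung cancer line, labelled as squamous cell carcinoma, and both groups come from that 1 line. The sample titles carry ASO for the silenced and NC for the control libraries, letters that the labels do not spell out, and no dose or time after silencing is given in the sources used here. For each gene, every peak that overlapped its GRCh38 span plus 20 kb on either side was taken, and peaks of the 6 lists that overlapped by at least 1 bp were joined into regions. The windows held 129 of the 507440 regions of the series. Nothing states that the libraries of a group came from separate cultures, so p-values measure only the spread between these libraries.

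YAP does not bind DNA itself. When the kinases of the Hippo pathway are inactive, it enters the nucleus and binds the TEAD transcription factors, which sit on short GGAATG-like elements in promoters and enhancers. CCN1 and CCN2 (formerly CYR61 and CTGF) encode secreted matrix proteins, and ANKRD1 encodes an ankyrin repeat protein best known in muscle. AMOTL2 encodes a scaffold of the angiomotin family and PTPN14 a phosphatase, both of which bind YAP and restrain it, so these targets form a feedback on the pathway. NUAK2 encodes a kinase of the AMPK-related family that acts back on the pathway.

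TEAD elements in the promoters were looked up first, since YAP reaches DNA through the TEAD factors. Enhancers were not searched. RefSeq promoter sequences (GRCh38.p14) matched 5 of the 6 genes by symbol, and 2 starts were listed for AMOTL2. The 250 bases upstream of each start were searched on both strands for the TEAD core GGAATG, for the AP-1 element TGANTCA and for the CArG box of serum response factor. Of the 35116 promoters in the table, 11.9% held GGAATG in this stretch, 6.57% held TGANTCA and 1.16% held a CArG box. The upstream stretches of CCN2, ANKRD1 and NUAK2 are shown because they held 2 or more TEAD cores. Capitals mark each match to the TEAD core, read on either strand, or to the AP-1 element, and no match overlapped another.
CCN2 (minus strand, chr6:131951373-131951622): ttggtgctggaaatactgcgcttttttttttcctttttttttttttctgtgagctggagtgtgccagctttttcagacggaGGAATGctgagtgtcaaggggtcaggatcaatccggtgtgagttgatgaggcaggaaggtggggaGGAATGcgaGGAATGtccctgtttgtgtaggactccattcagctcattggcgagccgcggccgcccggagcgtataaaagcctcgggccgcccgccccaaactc
ANKRD1 (minus strand, chr10:90921088-90921337): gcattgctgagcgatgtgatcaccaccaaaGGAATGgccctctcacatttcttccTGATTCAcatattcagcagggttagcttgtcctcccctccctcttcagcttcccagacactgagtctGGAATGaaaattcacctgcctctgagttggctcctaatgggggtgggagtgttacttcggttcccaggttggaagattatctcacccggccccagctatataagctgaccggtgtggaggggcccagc
NUAK2 (minus strand, chr1:205321746-205321995): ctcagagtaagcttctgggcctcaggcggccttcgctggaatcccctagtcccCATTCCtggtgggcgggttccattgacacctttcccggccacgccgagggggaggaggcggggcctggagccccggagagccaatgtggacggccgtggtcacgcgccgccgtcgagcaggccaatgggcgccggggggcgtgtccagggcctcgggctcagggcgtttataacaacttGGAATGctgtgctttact

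CCN2 held 3 TEAD cores, whose first bases lay 169, 104 and 95 bases upstream of its start, and 0.0826% of all promoters held 3 or more. ANKRD1 held 2, at 220 and 128 bases, with an AP-1 element at 195 bases between them. NUAK2 held 1 core 18 bases upstream and 1 on the opposite strand at 197 bases. PTPN14 held 1 core on the opposite strand at 200 bases, and AMOTL2 held 1 on the opposite strand 69 bases upstream of its inner start and 0 at its outer start. None of these stretches held a CArG box. The cores of CCN2, NUAK2, PTPN14 and the inner AMOTL2 start lay inside a called peak in all 6 libraries. Each of the 2 cores of ANKRD1 lay inside a peak in 4 of 6 libraries. A match of letters describes the sequence and does not show that a factor was bound.

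Peaks in these lists carry a pileup height, a whole number given by the authors on a scale that depends on each library. Heights were therefore turned into a place within the library: the 37284 regions with a peak in every library, here called shared regions, were ordered by the height of their tallest peak, and the place was written as a percentage from the top. A small percentage means a tall peak. Values in the text follow the order of replicates 1, 2 and 3 within each group. Silenced replicate 3 had the lowest background coverage (0.237, where the others had 0.369 to 0.464) and its heights are low throughout, so a low height in that library is read from its place and not from its height.

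The promoters of 5 of the 6 genes were open in every library of both groups, and the place of these peaks did not separate silenced from control cells. ANKRD1 was the exception, with a low promoter peak that 1 library did not call. Of the 129 regions, 22 were shared (17.1%), 40 were called in 2 to 5 libraries and 67 in a single library (51.9%). Over the whole series 7.35% of regions were shared and 74.1% were called once. Silenced libraries called 49, 58 and 58 of the regions, and control libraries called 57, 53 and 52. The silenced mean of 55 ± 5.2 (SD, n = 3) and the control mean of 54 ± 2.65 (SD, n = 3) differed by less than the spread between libraries. These counts were not adjusted for list length, which ran from 91346 peaks in control replicate 2 to 170882 in control replicate 1. Control replicate 2 had few low peaks, with a lowest height of 3 and a median of 8. The other lists had a lowest height of 2 and medians of 3 to 4.

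**Figure D1:**
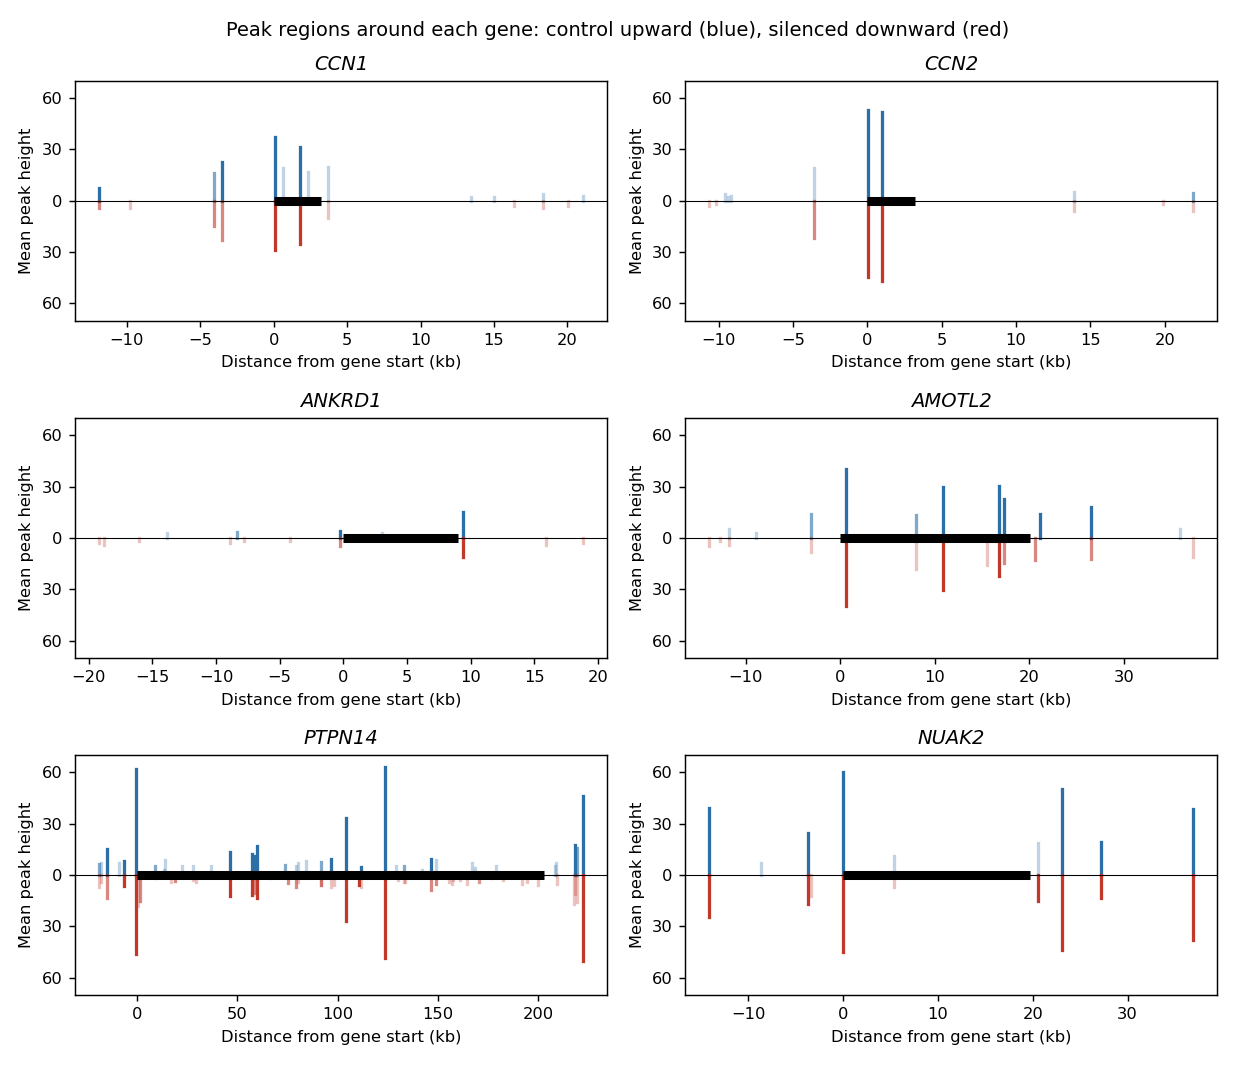
Peak regions in the window of each gene, by distance of the region's midpoint from the gene start (kb, negative is upstream). The height of a line is the mean peak height over the libraries that called the region, control libraries upward and silenced libraries downward, and fainter lines were called in fewer of the 3 libraries of that group. The black bar is the gene span. The tall lines at the starts of CCN1, CCN2, AMOTL2, PTPN14 and NUAK2 appear in both directions, and ANKRD1 has no tall line at its start.

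The tallest peak of each window was compared across the genome first. For each of the 18214 protein-coding genes with a peak in its window in every library, the height of the tallest peak was ranked within the library, and normal scores made from these ranks were tested with limma. The tallest peaks of PTPN14, NUAK2 and CCN2 stood in the upper part of the range, at 23.3% to 39.0% from the top over all libraries. AMOTL2 (35.7% to 55.4%) and CCN1 (51.0% to 56.6%) stood near the middle. ANKRD1 stood far down, at 74.4% to 92.1%. In each of the 6 genes the values of the 2 groups overlapped. The tallest peak of a window was not always the same peak in every library. For NUAK2 it was the region 23.1 kb from the start in silenced replicate 3 (height 38). In control replicate 1 that region and the start peak tied at a height of 54. The start peak was the tallest in the other libraries. The NUAK2 difference in score (silenced minus control) was 0.0282 for the tallest peak. For its start peak, ranked among shared regions, it was −0.175. The tallest peak also changed between libraries for CCN1, CCN2 and PTPN14.

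**Figure D2:**
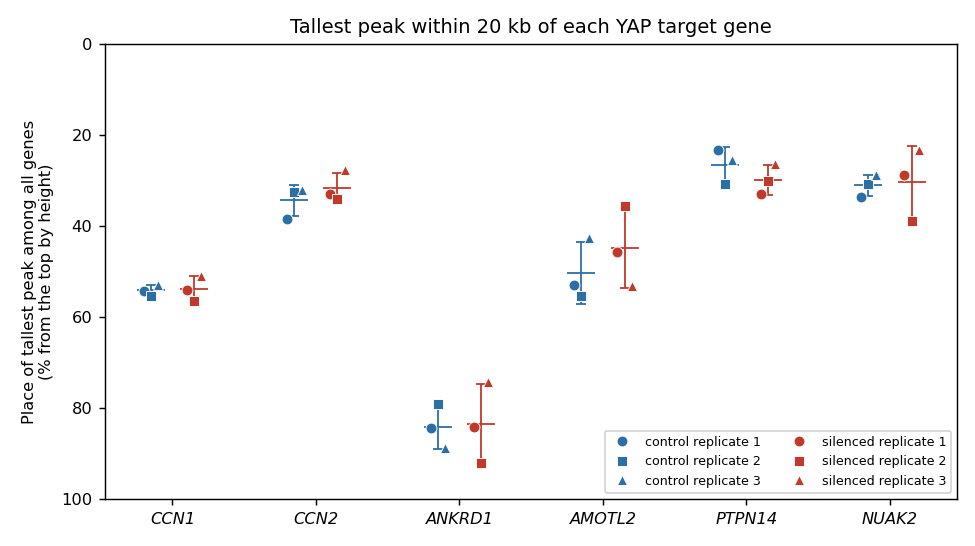
Place of the tallest peak in the window of each gene among 18214 genes (percent from the top by height, axis inverted so that tall peaks are at the top). Points are libraries, horizontal marks are group means and bars are SDs (n = 3 each). The tallest peak of a window can be a different peak in different libraries. Within each gene the silenced and control points overlap, and ANKRD1 sits below the other 5 genes in all 6 libraries.

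Of the 6 genes, 0 passed an adjusted p-value of 0.05 (limma with Benjamini-Hochberg adjustment over all genes tested), and 0 had an unadjusted p-value under 0.05. Over all genes 0% passed the adjusted test and 4.45% had an unadjusted p-value under 0.05. The differences in score (silenced minus control, in normal-score units) ran from −0.0998 for PTPN14 (SE 0.147, adjusted p = 0.977) to 0.139 for AMOTL2 (SE 0.158, adjusted p = 0.973). The AMOTL2 value was 0.0209 without silenced replicate 2 and 0.245 without silenced replicate 3, and that of PTPN14 was −0.0498 without control replicate 1. Their median was 0.0179, beside 0.00349 over all genes tested, whose central 95% ran from −0.369 to 0.349. Groups that did not overlap were found at 0 of the 6 genes in either direction, where 5.41% of all genes were higher and 4.78% lower in every silenced library than in every control library.

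The secreted factors come first. At CCN2 (chromosome 6, 131948176 to 131951372) a region over the start held a peak with heights of 54, 45 and 34 in silenced and 39, 63 and 57 in control libraries. Its places were 10.3%, 17.6% and 8.5% in silenced and 18.7%, 10.3% and 10.1% in control libraries. Control replicate 1 and silenced replicate 2 were the low ones, and the groups overlapped. This is the peak that covers the 3 TEAD cores printed above. The difference in score was 0.0440 (95% interval −0.27 to 0.36; adjusted p = 0.993 by limma over the 37284 shared regions). In the full lists, where ties share their mean rank, the peak was number 3863, 6631.5 and 3214 from the top in silenced and 7030.5, 3849.5 and 3784.5 in control libraries.

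A second CCN2 region lay 1.0 kb downstream of the start, inside the gene and inside the span of the antisense transcript CCN2-AS1, whose span also holds the start region. Its heights were 50, 61 and 30 in silenced and 49, 58 and 49 in control libraries, and its places were 11.8%, 10.7% and 10.7% in silenced and 12.8%, 12.0% and 13.2% in control. Every silenced library placed this region higher than every control library, by a margin that the test did not separate from the spread (difference 0.0805, 95% interval −0.19 to 0.35, adjusted p = 0.983 by limma). Upstream of CCN2, at 3.6 kb, a region reached 24 in silenced replicate 1, 20 in silenced replicate 2 and 19 in control replicate 1. The other 3 libraries had no call there.

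CCN1 (chromosome 1, 85580761 to 85583950) also had a peak over its start. The gene table gives no strand and the promoter table has no entry for CCN1, so its start was taken as the lower end of the span. Heights were 34, 37 and 16 in silenced and 35, 39 and 37 in control libraries. The places lay between 20.7% and 28.1%, and the single value above 23.1% was that of silenced replicate 3. The groups overlapped, and the difference was −0.0821 (95% interval −0.39 to 0.23, adjusted p = 0.986 by limma). Without silenced replicate 3 it was −0.0207. A region 1.8 kb into the gene had heights of 27, 28 and 20 in silenced and 30, 31 and 33 in control libraries, with a difference of 0.00254 (95% interval −0.34 to 0.34). Further upstream, 3.5 kb from the start and within the span of the neighbouring DDAH1, a region was called in 5 libraries. Control libraries had heights of 24, 26 and 18 there, and silenced replicates 1 and 2 had 17 and 29. Silenced replicate 3 had no call there.

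ANKRD1 (chromosome 10, 90912096 to 90921087) differed from the other genes in having almost no peak at its start. The region over the start reached 4, 5 and 3 in control libraries. Silenced replicates 2 and 3 reached 6 and 4, and silenced replicate 1 had no call. Peaks of this height are rarely reproduced in these lists: of the 80327 regions of the series whose tallest peak reached 5 to 9, 4.14% were called in all 6 libraries. The promoter printed above, with its 2 TEAD cores and AP-1 element, was thus covered by low peaks only, and because the region was not shared by all libraries it was not tested between the groups. The tallest region of the window lay 9.4 kb downstream of the start, just past the end of the gene, with heights of 13, 9 and 11 in silenced and 14, 20 and 11 in control libraries. Its places were 58.9%, 80.0% and 44.4% in silenced and 59.3%, 48.5% and 70.8% in control libraries, a wide scatter within both groups. The difference was −0.0610 (95% interval −0.65 to 0.53, adjusted p = 0.994 by limma).

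The feedback genes had strong peaks. AMOTL2 (chromosome 3, 134355345 to 134375417) has an outer and an inner start in the RefSeq table, at 134375417 and 134374447. The peak covered the inner start: the 250 bases upstream of it lay fully inside a peak in all 6 libraries, whereas 0 of the 250 bases upstream of the outer start were covered in any library. Heights at the inner start were 41, 59 and 19 in silenced and 36, 39 and 46 in control libraries, with places of 16.4%, 11.4% and 22.2% in silenced and 20.9%, 22.5% and 14.7% in control. Silenced replicate 2 was the highest and control replicate 2 the lowest, so the groups overlapped (difference 0.113, 95% interval −0.21 to 0.43, adjusted p = 0.981 by limma). Without silenced replicate 2 the difference was 0.00116, and without silenced replicate 3 it was 0.223. Regions inside the gene, 10.8 kb and 16.7 kb from the outer start, differed by 0.19 (95% interval −0.15 to 0.53) and −0.15 (95% interval −0.52 to 0.22).

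Near the far end of AMOTL2 a region 21.1 kb from the outer start was called in all 3 control libraries and in 0 silenced libraries. Its control heights were 13, 15 and 14, with an FDR from the authors of 0.0487, 0.0256 and 0.0434. A neighbouring region, 20.6 kb from the start, had the reverse pattern, with heights of 16 and 10 in silenced replicates 1 and 3 and no call in control libraries. This pair was chosen for its values. Over the series, 0.2% of regions were called in 3 control and 0 silenced libraries and 0.13% in 3 silenced and 0 control libraries. Among the 129 regions there was 1 of each kind. The region called only in silenced libraries lay 110.7 kb into PTPN14, with heights of 7, 6 and 5.

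PTPN14 (chromosome 1, 214348700 to 214551602) is the longest of the 6 genes, and its window held 64 regions, 8 of them shared. The peak over its start had heights of 49, 59 and 30 in silenced and 67, 65 and 54 in control libraries. Its places were 12.3%, 11.4% and 10.7% in silenced and 6.8%, 9.6% and 11.2% in control libraries. Control replicates 1 and 2 were higher than every silenced library and control replicate 3 fell among them (difference −0.134, 95% interval −0.41 to 0.14, adjusted p = 0.972 by limma). Without control replicate 1 it was −0.0580. A region in the middle of the gene, 123.6 kb from the start, was as tall as the promoter, with heights of 45, 66 and 35 in silenced and 63, 61 and 65 in control libraries and a difference of −0.0892 (95% interval −0.37 to 0.19).

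At the far edge of the PTPN14 window, within the span of the neighbouring gene SMYD2, a region 222.5 kb from the PTPN14 start had places of 10.3%, 10.4% and 8.5% in silenced and 14.8%, 15.4% and 16.55% in control libraries. Every silenced library placed it higher than every control library. The difference was 0.29 (95% interval 0.01 to 0.56) with an unadjusted p-value of 0.0398, and it did not pass the adjusted test (adjusted p = 0.971 by limma). SMYD2 encodes a lysine methyltransferase, and nothing in these lists ties this region to PTPN14 other than its position.

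NUAK2 (chromosome 1, 205302063 to 205321745) had 6 shared regions among the 10 of its window. The peak over its start, which covers both TEAD cores printed above, had heights of 59, 55 and 21 in silenced and 54, 65 and 61 in control libraries. The places were 8.6%, 12.8% and 19.1% in silenced and 10.8%, 9.6% and 8.8% in control libraries. Silenced replicate 1 was the highest of all, silenced replicate 3 was the lowest, and the groups overlapped (difference −0.175, 95% interval −0.47 to 0.12, adjusted p = 0.971 by limma). Without silenced replicate 3 it was −0.0495. Past the end of the gene, 23.1 kb from the start, a region had heights of 51, 42 and 38 in silenced and 54, 54 and 43 in control libraries and a difference of 0.0801 (95% interval −0.24 to 0.40).

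Upstream of NUAK2, 14.1 kb from the start and within the span of KLHDC8A, lay the shared region with the largest difference of the 22. It lies outside the naming rule and was chosen after its values were seen. Its heights were 29, 35 and 10 in silenced and 44, 41 and 33 in control libraries, and its places were 26.4%, 24.9% and 49.1% in silenced and 15.4%, 20.8% and 24.2% in control. Every silenced library placed it lower than every control library, although silenced replicate 2 (24.9%) lay close to control replicate 3 (24.2%). The difference was −0.40 (95% interval −0.78 to −0.02, unadjusted p = 0.0398, adjusted p = 0.971 by limma). Leaving out silenced replicate 3 reduced it to −0.19.

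Across the 22 shared regions, 10 were placed higher and 12 lower in silenced cells, with a median difference of −0.0483, beside −0.000494 over all shared regions. The median size of the difference, regardless of sign, was 0.113 at these regions and 0.162 over all shared regions. Of the 22, 0 passed the adjusted test, as did 0% of all shared regions, and 2 (9.09%) had an unadjusted p-value under 0.05 against 4.34% of all. Non-overlapping groups were seen at 2 regions (9.09%) in the higher direction, against 5.11% of all, and at 1 region (4.55%) in the lower direction, against 4.67%. The median interval reached 0.336 units to either side of the difference.

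**Figure D3:**
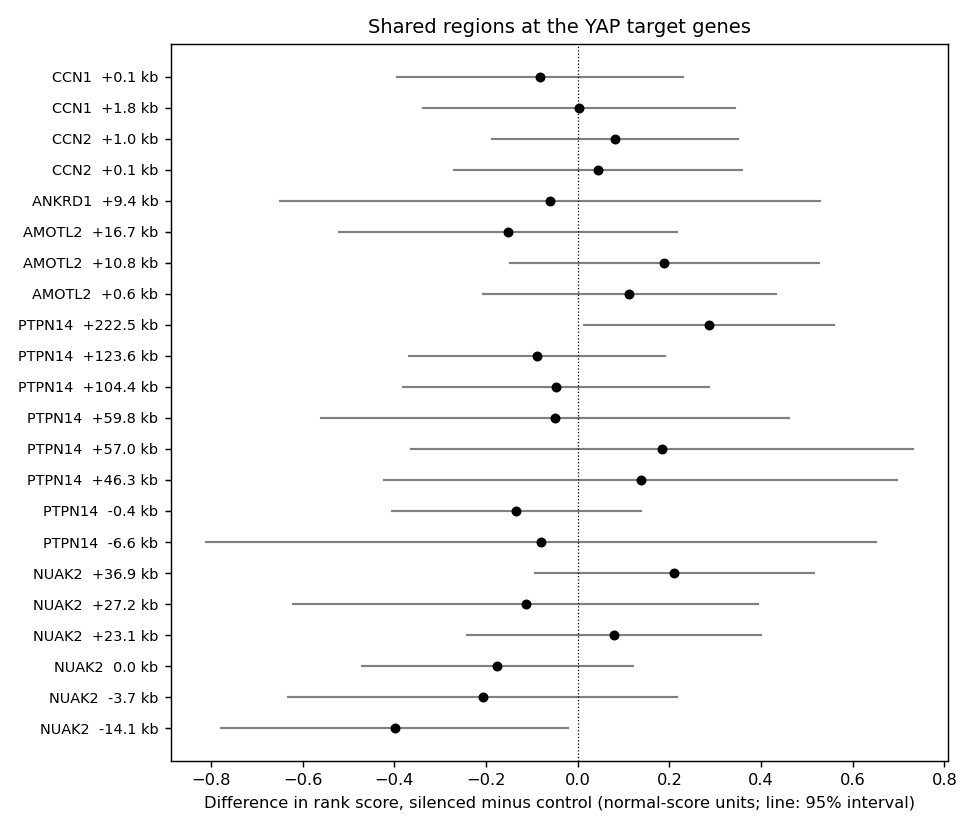
Difference in rank score (silenced minus control, normal-score units) at each of the 22 shared regions in the windows of the 6 genes, with 95% intervals from limma. Labels give the gene and the distance of the region from the gene start. The intervals of 20 regions include 0, and those of the PTPN14 region at 222.5 kb and the NUAK2 region at −14.1 kb do not.

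Counting only strong peaks gave a lower number in silenced cells. At an FDR of at most 1e-05, 20, 21 and 17 of the regions remained in silenced and 25, 24 and 22 in control libraries, so the groups did not overlap. Of the 31 regions with such a call in any library, 13 were called in more control than silenced libraries, 2 in more silenced libraries and 16 in equally many. These shares, 41.9% and 6.45%, compare with 37% and 13.6% of the 50244 regions of the series that had such a call, so a tilt toward control libraries was present across the series. The lists themselves held 33511, 36225 and 24487 peaks at this FDR in silenced and 35695, 37323 and 36497 in control libraries. Per 10000 such peaks, the counts were 5.97, 5.80 and 6.94 in silenced and 7.0, 6.43 and 6.03 in control libraries, and the groups then overlapped. With all 6 lists reduced to the length of the shortest by p-value, 45, 53 and 47 regions were called in silenced and 53, 53 and 45 in control libraries, again with overlap.

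The place of several of these peaks differed between a ranking by height and a ranking by fold enrichment. The regions compared were chosen for their height, which by itself favours a lower place in another ranking. Fold enrichment is the height over the local background that the caller estimates around each peak. At the start of CCN1 the peak stood at a median of 22.1% from the top by height and at 81.1% by fold enrichment, over the 6 libraries. The CCN2 promoter peak moved from 10.3% to 58.1%, and the NUAK2 region 23.1 kb from the start moved from 12.5% to 55.0%. These peaks were tall but stood on a high local background. Behind the CCN1 and CCN2 promoter peaks it was 15.5 and 17.0 times the library's lowest background, against a median of 2.97 times over all shared regions. These ratios exceeded those of 97.6% and 98.3% of shared regions. The ANKRD1 region, on a background of 1.74 times the lowest, moved the other way, from 59.1% to 46.9%. The PTPN14 region at 123.6 kb also did, from 8.62% to 5.85%. Smaller falls were seen at the starts of PTPN14 (10.9% to 26.7%) and NUAK2 (10.2% to 26.3%). The PTPN14 region at 222.5 kb moved from 12.6% to 26.4% and the AMOTL2 inner start from 18.6% to 40.4%.

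**Figure D4:**
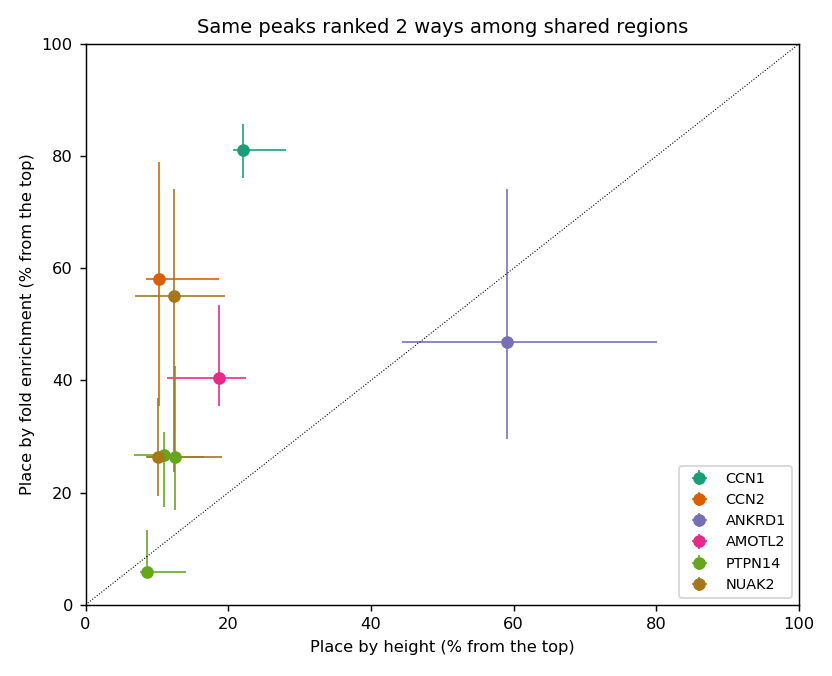
Place of 9 regions of the 6 genes among the shared regions, by height (horizontal axis) and by fold enrichment (vertical axis), both in percent from the top. Points are medians over 6 libraries and bars run from the lowest to the highest library. The dotted line marks equal places. The CCN1 promoter is at 22.1% by height and 81.1% by fold enrichment, and the ANKRD1 region and 1 PTPN14 region lie below the line.

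Some tall regions were not called in every library. Of the 26 regions that reached a height of at least 20 in some library, 7 were missing from at least 1 list. These gaps fell in both groups but were more frequent in silenced libraries. There, 23 of the 26 were called in each library, against 25, 25 and 24 in control libraries, so the groups did not overlap. The same count per library was not made over the series, so this difference cannot be called particular to these windows. Over the series, 85.1% of regions whose tallest peak reached 20 to 29 were called in all 6 libraries, against 4 of 11 in these windows. Taller regions of these windows had no gaps. All 7 with a tallest peak from 30 to under 50, and all 8 of 50 or more, were called in all 6 libraries.

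The other genes of the pathway were read in the same gene-wide fit. Of the other 16 genes of a 22-gene YAP target signature, all had a peak in every library, 0 passed the adjusted test and 2 (12.5%, against 4.45% of all genes) had an unadjusted p-value under 0.05, both placed lower in silenced cells. GADD45A, a stress-induced growth arrest gene, had tallest peaks of 80, 86 and 55 in silenced and 106, 116 and 110 in control libraries. Its places were 15.1%, 17.6% and 10.9% in silenced and 6.0%, 6.68% and 5.42% in control libraries, without overlap (difference −0.49, SE 0.145, unadjusted p = 0.00345, adjusted p = 0.960 by limma). IGFBP3, which encodes a secreted binding protein of insulin-like growth factors, had places of 75.0%, 72.7% and 77.4% in silenced and 57.1%, 63.7% and 65.1% in control libraries, also without overlap (difference −0.37, SE 0.143, unadjusted p = 0.0181, adjusted p = 0.960 by limma). The groups did not overlap in the lower direction at 3 of the 16 genes (18.75%, against 4.78% of all), and at 0 in the higher direction. The third gene was CRIM1 (41.9% ± 0.901 in silenced and 36.7% ± 3.46 in control libraries, SD, n = 3 each). The CRIM1 difference was small beside its error (−0.138, SE 0.142, unadjusted p = 0.344, adjusted p = 0.973 by limma). In all, 7 of the 16 were placed higher and 9 lower, with a median difference of −0.0479.

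Of 14 genes of the Hippo machinery, from the kinases and their adaptors to YAP1, WWTR1 and the TEAD factors, 0 passed the adjusted test, and 7 were placed higher and 7 lower in silenced cells (median difference −0.0166). The smallest p-value belonged to YAP1 itself, whose tallest peak had heights of 18, 17 and 9 in silenced and 20, 31 and 23 in control libraries. Its difference was −0.28 (SE 0.151, unadjusted p = 0.0816, adjusted p = 0.960 by limma). YAP1 was the 1 gene of the 14 whose groups did not overlap in the lower direction (7.14%, against 4.78% of all genes). In the higher direction the groups did not overlap at 2 genes, VGLL4 and MOB1A (14.3%, against 5.41% of all). The VGLL4 difference was 0.154 (SE 0.141, unadjusted p = 0.291, adjusted p = 0.970 by limma). That of MOB1A was 0.139 (SE 0.143, unadjusted p = 0.344, adjusted p = 0.973 by limma).

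Over the 6 libraries, the genes whose scores followed the mean score of the 6 targets most closely were ZBTB39 and ACKR5, both with a Pearson r of 0.997, and CCER1, with an r of 0.994. ZBTB39 and ACKR5 had the same score in every library, so they count as 1 observation. Of 18201 genes, 108 had an r above 0.95, and the 6 points share the depth of each library.

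The label of the line was compared with the ends of marker genes. Within 1 kb of an end of the gene, 1 of 5 squamous markers (SOX2) had a peak in all 6 libraries. TP63 had a low one in 4 libraries, KRT5 and DSG3 in 2 and KRT6A in 0. Of 3 lung adenocarcinoma or alveolar markers, 2 (NKX2-1 and NAPSA) had a peak in all 6 and SFTPB had one in 2. All 3 mesenchymal markers (VIM, COL1A1 and PDGFRB) had a peak in all 6. The peaks of NAPSA (height 5 to 12) and PDGFRB (6 to 11) were low, at medians of 94.4% and 95.3% from the top of 12002 genes, and that of SOX2 stood at 78.2%. The blood marker PTPRC had a peak in 2. At its ends, then, 4 of the 5 squamous markers lacked a peak in some or all libraries. In the wider window of span and 20 kb, TP63 had a tallest peak of 20 to 31 in all 6 libraries, whereas KRT5 and KRT6A stayed at 3 to 6. Every other marker also had a peak in that window in all 6 libraries, as did 18214 of the 20033 protein-coding genes. The tallest reached 10 to 22 for SOX2, 4 to 13 for DSG3 and 5 to 13 for PTPRC. Heights were 16 to 36 for NKX2-1, 20 to 56 for NAPSA and 13 to 32 for SFTPB. For VIM they were 24 to 49, for COL1A1 28 to 47 and for PDGFRB 27 to 57. No RNA was measured.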

How the data were processed

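ATAC-seq uses a transposase to insert adapters into open DNA, so peaks mark accessible chromatin. The authors deposited 1 peak list per library. Per the file headers, each peak has a fold enrichment (a ratio), a p-value, an FDR and a pileup signal, here the height, all as deposited by the authors. Per the submitters' processing notes, Trimmomatic 0.36, Bowtie2 2.2.6, Picard 2.8.2, MACS2 2.1.1, bedtools 2.25.0 and GRCh38 were used; parameters, read depth and any shift of read ends are not given in the sources used here. Background coverage, the smallest (height + 1) / fold enrichment − 1 of a list, stood in for depth. The lists held 91346 to 170882 peaks on chromosomes 1 to 22, X and Y.

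The 6 genes, the gene lists and the tests were chosen with earlier results of these data known. Regions are described by height rank within the library. Ranks were turned into normal scores and tested with limma 3.58.1 in R 4.3.3 (mean-dependent prior, group as the only term), once over the tallest peak of 18214 gene windows and once over 37284 shared regions, with Benjamini-Hochberg adjustment. Neighbouring genes can share a peak. Regions named are the tallest of each gene and those in the top 10% by height in any library, and others as stated. Gene spans and promoters came from RefSeq GRCh38.p14. Alternatives were ranking by fold enrichment or p-value, an FDR of at most 1e-05, a height of at least 4, equal list sizes, an overlap of at least 50 bp, windows of 5 kb, 50 kb or 1 kb around gene ends, a replicate block and leaving out each library.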

Additional observations from a re-analysis of the deposited data

How the results depend on the processing

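Under every alternative but 1, limma with Benjamini-Hochberg adjustment called 0 gene windows and 0 shared regions (unadjusted p-value under 0.05: 559 to 1272 gene windows, 820 to 2581 regions). The exception was the fit without silenced replicate 3, which called 1 gene window, that of NTF4 (−0.88, adjusted p = 0.0358, against 0.539 with all libraries). Fits that left out 1 library thus gave 0 to 1 gene windows and 0 regions. None of the 6 genes or of their named regions was called under any alternative. With the replicate block the counts were 0 and 0, with unadjusted p-values under 0.05 at 789 gene windows and 1673 regions. Deviations of same-numbered libraries correlated at −0.0150 to 0.0135 over the gene windows and −0.0114 to −0.00209 over the regions, so the numbers are not known to pair the libraries.

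Small differences (silenced minus control) changed sign as follows; the cause was not tested. For the tallest peak within 1 kb of a gene end they were −0.0477 for CCN1, −0.0382 for CCN2, 0.0252 for ANKRD1 and −0.190 for NUAK2. With the 50 kb window CCN1 was −0.000359. Ranked by fold enrichment, ANKRD1 was 0.0689 and NUAK2 −0.160, and by p-value 0.0757 and −0.0314. Ranked by fold enrichment, the CCN1 promoter region was 0.0824, the PTPN14 promoter region 0.00202 and the ANKRD1 region 0.0369 (0.0303 by p-value). Without silenced replicate 3 and control replicate 2 together, a choice made after seeing the data, CCN1 was −0.0431, NUAK2 −0.0709, the NUAK2 region at 23.1 kb −0.0716 and the PTPN14 region at 123.6 kb −0.219, the last with its sign kept.

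Leaving out 1 library gave −0.0279 to 0.0417 for CCN1, −0.188 to 0.189 for ANKRD1 and −0.0737 to 0.149 for NUAK2. For regions it gave −0.0830 to 0.173 at the CCN2 promoter, −0.286 to 0.206 at the ANKRD1 region, −0.155 to 0.00715 at the PTPN14 region at 123.6 kb and −0.0699 to 0.242 at the NUAK2 region at 23.1 kb. The sign held, but the size did not, for AMOTL2 (0.0209 to 0.245; promoter region 0.00116 to 0.223), CCN2 (0.0230 to 0.113), PTPN14 (−0.165 to −0.0498; promoter region −0.194 to −0.0580) and the promoter regions of NUAK2 (−0.296 to −0.0495) and CCN1 (−0.127 to −0.0207). The PTPN14 region at 222.5 kb kept its sign and nearly its size (0.251 to 0.305). The NUAK2 region at −14.1 kb, chosen after its values were seen, kept its sign only (−0.516 to −0.188). Neither region passed the adjusted test under any alternative. The difference in regions called per library was 1 in the full lists, −0.5 to 4 without 1 library, −2 with lists of equal length, −2 at a height of at least 4, −1.67 for regions of height 20 or more and −4.33 at an FDR of at most 1e-05. With 3 libraries a group and unknown read depth, peaks missing from some lists, such as the ANKRD1 promoter, were not compared.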
